A study of Marchantia polymorpha and Arabidopsis thaliana with 40 samples.

Results

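The comparison described here set hsfb1 knockout plants of the liverwort Marchantia polymorpha against the wild type Tak-1 after both had been held at 37 °C for 1 h. Its members were fixed by the labels: 2 heated hsfb1 libraries and 2 heated Tak-1 libraries, 4 of the 40 libraries of the series, read over all 40873 accessible regions of the heat table. The assay was ATAC-seq, in which the transposase Tn5 cuts and tags open DNA so that read counts per region report accessibility. The study asked how heat shock transcription factors shape chromatin after heat, and this contrast asks which regions differ when HSFB1 is absent from heated plants.

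The tested plants were hsfb1, labelled as a knockout and as the single line b1-70, and their wild type was Tak-1, a male accession that carries chromosome V. Both were whole gemmalings, young plants grown from asexual gemmae, raised for 7 days at 22 °C in continuous light, and nuclei were stained with DAPI and sorted before tagmentation. Other libraries are used below to read the same regions elsewhere: hsfb1 and Tak-1 kept at 22 °C, heated double knockout plants of hsfa1 and hsfb1 (dko, line a1,b1-62), heated hsfa1 knockout plants (line a1-8), and hsfb1 and Tak-1 of a second set that received mock solution or abscisic acid (ABA). The heat responses of dko and hsfa1 also use dko and hsfa1 plants kept at 22 °C. Each group had 2 libraries, and the labels do not say whether these came from separate cultures, so p-values measure only the spread between these libraries. All hsfb1 libraries came from 1 line, so the knockout and other properties of that line cannot be told apart. In nuclei pooled from whole plants, a region open in fewer nuclei and a region less open in each nucleus cannot be told apart either.

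Heat shock factors are transcription factors that bind heat shock elements in DNA. Class A factors such as HSFA1 carry an activation domain and are known as activators of chaperone genes under heat. Class B factors such as HSFB1 lack that domain, and in flowering plants several of them act as repressors that restrain or end the response. The gene of HSFB1 itself was not analysed here, because the regions carry no gene names and the annotation at hand belongs to another assembly, so the knockout was not checked in the counts. Regions are therefore named by chromosome, start and end as the table gives them, on a genome build that the sources used here do not name, and what lies in them was not analysed here.

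The heated hsfb1 libraries held 27.1 and 29.1 M counts in regions, and the heated Tak-1 libraries 51.4 and 71.2 M. The median region held 358 and 376 counts in heated hsfb1, against 634 and 895 counts in heated Tak-1. The hsfb1 pair was closer than the Tak-1 pair: the SD of the log2 ratio between replicates was 0.206 for heated hsfb1 and 0.273 for heated Tak-1, with Spearman's rho over regions of 0.993 and 0.987. The chi-square per region, which also grows with depth, was 2.83 for heated hsfb1 and 24.2 for heated Tak-1. Leaving out any 1 of the 4 libraries changed the number of differing regions strongly, and values without single libraries are given beside the main counts. Counts by neighbour, chromosome, width or heat response are from all libraries.

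At most regions heated hsfb1 and heated Tak-1 were close, and a small set of regions stood far apart. The median log2 difference over all regions was 0.0 and the central 90% lay between -0.39 and 0.52. By the quasi-likelihood F test of edgeR, with p adjusted by Benjamini-Hochberg, 2058 regions (5.04%) passed an adjusted p of 0.05, of which 1418 (3.47%) were higher and 640 (1.57%) lower in hsfb1. Over 2-fold, 101 regions (0.247%) were higher and 139 (0.34%) lower. These 240 regions, rather than the longer list, are described first.

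The count of 2058 rested on which libraries entered. It was 4216 without Tak-1 replicate 1, 340 without Tak-1 replicate 2, 427 without hsfb1 replicate 1 and 914 without hsfb1 replicate 2. The over 2-fold count was 674 without Tak-1 replicate 1 (482 higher, 192 lower) and ran from 166 to 242 without any other library. Called the same way under all 12 settings run, each single library left out included, were 143 higher and 109 lower regions, and 64 of the higher and 88 of the lower ones were over 2-fold in the fit of all libraries.

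The strongest gains were regions close to empty in Tak-1 and well covered in hsfb1. The 10 regions with the highest difference among regions with a mean of at least 50 counts are called P1 to P10, from the highest. P1, on chromosome 2 from 10458106 to 10458869, held 66.0 and 65.6 CPM (counts scaled to library size) in heated hsfb1, against 1.92 and 1.47 CPM in heated Tak-1. That was a 39.3-fold difference (log2 5.30, SE 0.16, adjusted p = 6.72e-21). P3, on chromosome 4 from 9202230 to 9203395, held 73.8 and 71.9 CPM in heated hsfb1 and 2.44 and 2.30 CPM in heated Tak-1. In both regions the hsfb1 libraries lay close to each other and far above both Tak-1 libraries.

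P6, on chromosome 5 from 10299142 to 10299897, held 61.0 and 61.1 CPM in heated hsfb1, against 2.48 and 2.30 CPM in heated Tak-1. P10, on chromosome 2 from 10184401 to 10184802, held 34.3 and 34.1 CPM in heated hsfb1 and 1.82 and 1.14 CPM in heated Tak-1. P7, a short region on chromosome 8 from 144295 to 144411, was the least covered of the 10, with 5.73 and 4.65 CPM in heated hsfb1 and 0.155 and 0.234 CPM in heated Tak-1. The 10 regions lay on 6 chromosomes, were 116 to 1165 bases wide and differed by 23.6- to 39.3-fold. In none of them did the groups overlap, but they had been picked by this same difference, so this is no further result.

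The strongest losses mirrored these. M1 to M10, counted from the lowest difference under the same rule, held 0.135 to 2.63 CPM in heated hsfb1 and 3.09 to 48.9 CPM in heated Tak-1. M1, on chromosome 5 from 26140671 to 26140988, held 0.36 and 0.438 CPM in heated hsfb1, which were 10 and 13 counts, against 14.3 and 11.3 CPM in heated Tak-1, which were 737 and 823 counts. It was 31.6-fold lower (log2 -4.98, SE 0.32, adjusted p = 7.89e-13). M2, on chromosome 1 from 17091164 to 17091887, held 1.15 and 0.606 CPM in heated hsfb1 and 28.7 and 21.5 CPM in heated Tak-1. The most covered of the 10 was M10, on chromosome 5 from 15945676 to 15947059, with 2.42 and 2.63 CPM in heated hsfb1, against 48.9 and 35.8 CPM in heated Tak-1. These regions lay on 5 chromosomes and differed by 16.7- to 31.6-fold. Their groups did not overlap, and they too had been picked by this difference.

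**Figure D1:**
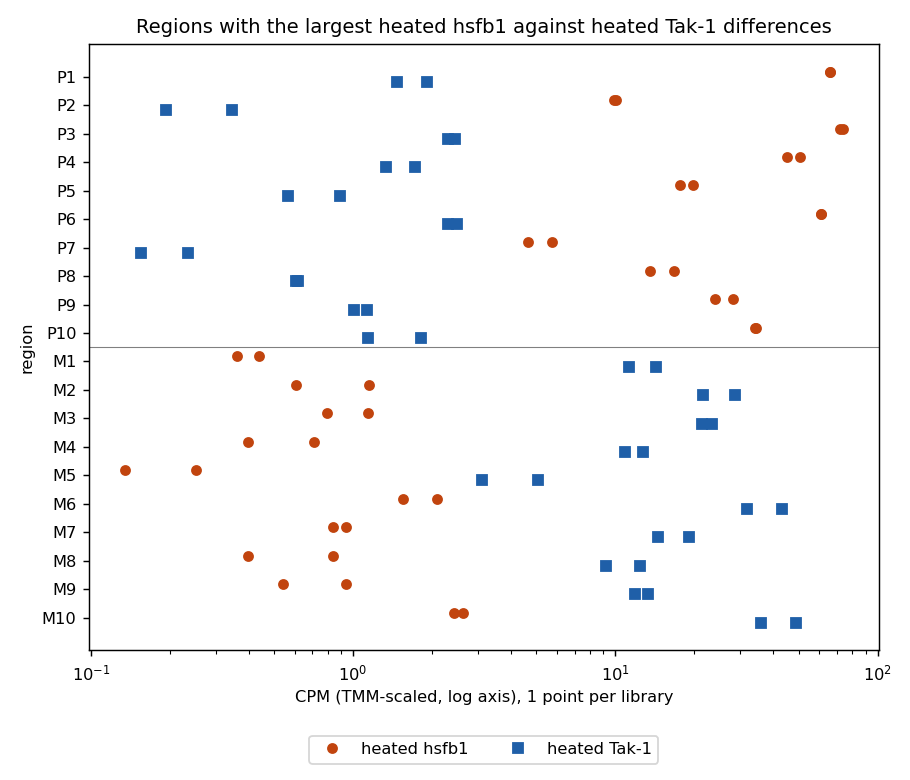
Accessibility of P1 to P10 and M1 to M10 in CPM on a log axis, with 1 point per library, hsfb1 as circles and Tak-1 as squares. The Tak-1 points of P1 to P10 lie between 0.155 and 2.48 CPM, and the hsfb1 points of M1 to M10 between 0.135 and 2.63 CPM.

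Regions below 0.5 CPM in both libraries of one genotype and above 2 CPM in both of the other were few. Heated hsfb1 had 7 that were near empty in it, and heated Tak-1 had 6. At 22 °C, 3 of the 7 were also below 0.5 CPM in both hsfb1 libraries, and 6 of them were above 2 CPM in both Tak-1 libraries. Of the 6 near empty in heated Tak-1, 4 were below 0.5 CPM in both Tak-1 libraries at 22 °C and 6 were above 2 CPM in both hsfb1 libraries there.

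The large differences stood mostly alone among their neighbours. Of the 202 nearest regions on either side of the 101 over 2-fold higher regions, 36 (17.8%) were also called higher, with a median gap of 3526 bases. Of 276 such neighbours of the 139 over 2-fold lower regions, 30 (10.9%) were also called lower. Both shares were above the 3.47% and 1.57% of all regions. Of the 640 lower regions, 536 had no called neighbour in the same direction, and of the 1418 higher ones 1148 had none.

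A stretch of chromosome 7 was the longest run of strong gains. Its 5 neighbouring regions, from 2583755 to 2587262, were all higher in heated hsfb1, by log2 2.31 to 4.35. The region at its end, from 2586745 to 2587262, held 25.4 and 26.4 CPM in heated hsfb1, against 1.20 and 1.32 CPM in heated Tak-1, a 20.4-fold difference (log2 4.35, SE 0.16, adjusted p = 3.74e-19). The region before it, from 2585522 to 2586455, held 23.6 and 23.9 CPM in heated hsfb1 and 1.88 and 1.76 CPM in heated Tak-1. The first of the 5, from 2583755 to 2583819, was far less open, at 1.44 and 1.18 CPM in heated hsfb1 and 0.135 and 0.357 CPM in heated Tak-1. All 5 regions were also called higher at 22 °C, by 1.53 to 3.86. The gain was not limited to lines without HSFB1. Heated hsfa1 held 23.3 and 22.9 CPM in the end region, and heated dko 29.9 and 30.1 CPM. In the region before it, heated hsfa1 held 13.7 and 12.8 CPM and heated dko 61.8 and 52.6 CPM. The first region held 0.684 and 0.725 CPM in heated hsfa1 and 2.06 and 2.46 CPM in heated dko.

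The longest run of losses was shorter and weaker. It was made of 4 regions on chromosome 2 from 20665045 to 20672407, with log2 differences of -0.91 to -0.40. The clearest, from 20667346 to 20667789, held 7.25 and 6.46 CPM in heated hsfb1 and 11.0 and 12.3 CPM in heated Tak-1 (log2 -0.77, SE 0.17, adjusted p = 0.00418). All 4 were called lower at 22 °C as well. None of the 4 passed the threshold without Tak-1 replicate 2, without hsfb1 replicate 1 or without hsfb1 replicate 2, with log2 values of -0.68, -0.85 and -0.69 for the clearest.

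The longest run of higher calls by number of regions lay on chromosome U, and it moved with 2 of the libraries. Chromosome U is the female sex chromosome of Marchantia and V the male one. Tak-1 is male, so counts on U may not come from a chromosome U in these plants. Their origin was not tested. Of the 22 regions on U, 20 were called higher in heated hsfb1 (90.9%), with a median log2 difference of 0.75, 14 of them in 1 run from 1777382 to 4419311. Summed over U, heated hsfb1 held 1555 and 1406 CPM, and heated Tak-1 held 1072 and 740 CPM. Without Tak-1 replicate 2, 5 of the 22 were called, and without hsfb1 replicate 1, 7 were. At 22 °C, 8 of the 22 regions on U were called higher, with a median log2 difference of 0.26, where 17.3% of all regions were. Summed over U, hsfb1 held 1154 and 1670 CPM there and Tak-1 1243 and 1399 CPM, so the groups overlapped. In the second set of plants 0 of the 22 were called higher, with a median of 0.35. On V, 29 of 137 regions were higher and 5 lower when heated. Summed over V, heated hsfb1 held 19330 and 18100 CPM and heated Tak-1 held 15110 and 7695 CPM. Without Tak-1 replicate 2, 1 region on V was called higher and 5 lower, and without hsfb1 replicate 1, 6 were higher and 5 lower.

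On the autosomes the over 2-fold regions were spread. Each of chromosomes 1 to 8 held 8 to 17 of the higher and 9 to 30 of the lower ones. Chromosome 4 held the most lower regions, 30, beside 15 higher ones. The share of regions called higher ran from 2.97% on chromosome 6 to 3.68% on chromosome 5, and the share called lower from 1.34% on chromosome 2 to 1.98% on chromosome 4.

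Much of the large heated difference was present without heat. The 22 °C libraries of both genotypes do not enter the heated log2 difference, though they share in the estimate of spread behind its p-values. They give a second reading of the 240 regions, of which 229 were among the 230 called from the 4 heated libraries alone. Of the 101 regions over 2-fold higher in heated hsfb1, 90 (89.1%) were called higher at 22 °C and 0 lower, where 17.3% of all regions were called higher. Of the 139 over 2-fold lower, 97 (69.8%) were called lower and 1 higher, where 18.4% of all regions were called lower. These backgrounds rested on 2 libraries: without Tak-1 control replicate 2, 0.641% of all regions were called higher and 0.533% lower at 22 °C, yet 61 of the 101 and 84 of the 139 were called the same way. Without hsfb1 control replicate 2, 65 of the 101 and 82 of the 139 were, against 1.15% and 0.685% of all regions.

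P1 to P10 and M1 to M10 were all called in the same direction at 22 °C. P1 held 51.1 and 53.2 CPM in hsfb1 and 1.10 and 1.40 CPM in Tak-1 at 22 °C, with a log2 difference of 5.37. M1 held 0.358 and 0.129 CPM in hsfb1 and 11.1 and 8.40 CPM in Tak-1 at 22 °C. The 22 °C differences of P1 to P10 were 2.93 to 5.80 and those of M1 to M10 -5.22 to -3.24. P7 had the largest gap between both conditions, at 4.68 when heated and 2.93 at 22 °C, and the difference of 1.75 missed the threshold (adjusted p = 0.164). For none of the 20 did edgeR call the heat response of hsfb1 different from that of Tak-1.

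**Figure D2:**
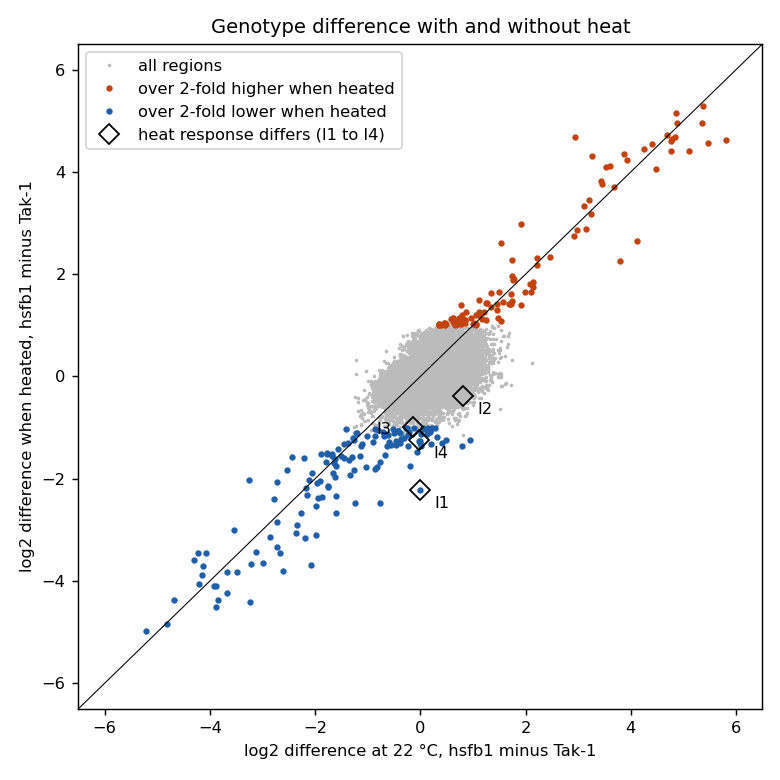
Log2 difference of hsfb1 minus Tak-1 when heated (vertical) against the same difference at 22 °C (horizontal), 1 point per region, with the 101 over 2-fold higher and 139 over 2-fold lower regions coloured and the line of equal differences drawn. The coloured points at the far ends lie near the line, and the marked regions I1 to I4 lie below it.

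Over all 40873 regions, which are not independent of each other, the heated and 22 °C differences correlated at Pearson's r = 0.59 and Spearman's rho = 0.53, as a description. Both contrasts share the plant lines and the set of regions but no library. Of all regions, 35.7% were called at 22 °C. Read the other way, 111 regions (0.272%) were over 2-fold lower in hsfb1 at 22 °C, and 96 of them (86.5%) were called lower when heated, with a median log2 difference of -1.74. Of 565 regions (1.38%) over 2-fold higher at 22 °C, 109 (19.3%) were called higher when heated and 0 lower, with a median of 0.37.

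The second set of plants gave a further reading of the same lines. In it, hsfb1 and Tak-1 each had 4 libraries, treated with mock solution or ABA, and the genotype difference was averaged over both treatments. Of the heat table's regions, 38334 had a counterpart there. Among the over 2-fold higher regions 86 had one, and 65 of these (75.6%) were called higher and 0 lower, where 7.17% of matched regions were called higher. Among the over 2-fold lower regions 110 had one, and 94 (85.5%) were called lower and 0 higher, where 6.38% were called lower. Without any 1 of the 8 libraries, 56 to 64 of the 86 and 89 to 95 of the 110 were called the same way. P1 held 44.8 to 59.9 CPM in the 4 hsfb1 libraries of this set (median 50.4) and 0.506 to 1.13 CPM in the 4 Tak-1 libraries (median 0.789). M2 held 0.149 to 0.635 CPM in hsfb1 (median 0.332), against 20.5 to 20.9 CPM in Tak-1 (median 20.7). The log2 differences there were 6.03 for P1 and -5.83 for M2, beside 5.30 and -4.84 when heated. P1 to P10 all had a counterpart and were called higher, and of M1 to M10, 8 had one and all 8 were called lower.

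A weaker overlap appeared between lines with and without HSFB1 in another background. Heated dko minus heated hsfa1 compares plants without both factors with plants without HSFA1 alone, in lines and libraries that the hsfb1 contrast does not use. Each was 1 line, so loss of HSFB1 and other differences between these lines cannot be told apart. Of the 101 over 2-fold higher regions, 40 were called higher there and 3 lower, where 0.795% of all regions were called higher. Of the 139 over 2-fold lower regions, 32 were called lower and 23 higher, where 1.73% were called lower and 0.795% higher. Without any 1 of the 4 libraries of that contrast, 28 to 33 of the 101 were called higher, and 14 to 20 of the 139 were called lower and 17 to 22 higher.

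**Figure D3:**
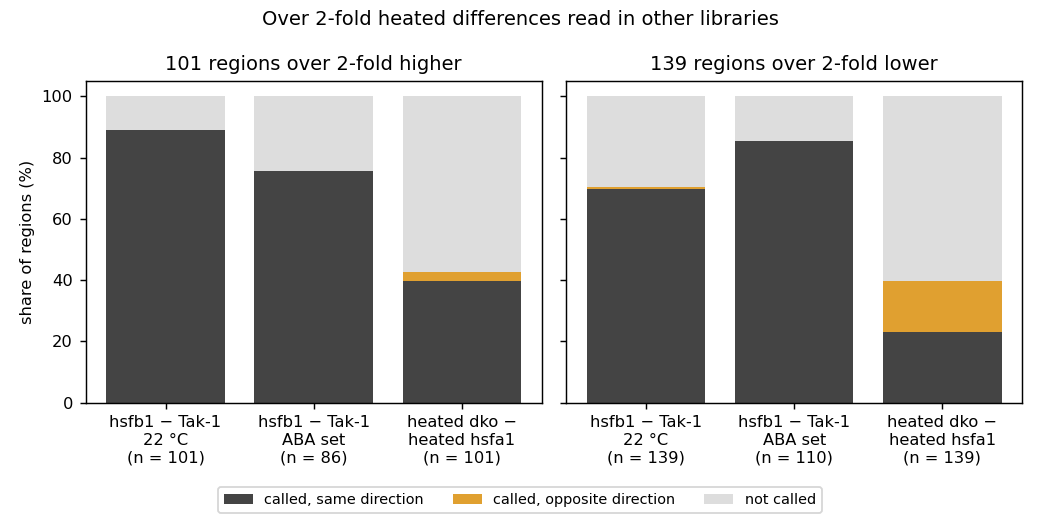
Share of the 101 over 2-fold higher and 139 over 2-fold lower regions of heated hsfb1 that were called in the same direction, in the opposite direction or not at all in 3 contrasts that share no library with the heated one. The opposite direction is seen mainly for lower regions in heated dko minus heated hsfa1, with 23 of 139.

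Individual regions followed several patterns across the lines. P3 was open in both heated lines without HSFB1: heated dko held 70.4 and 68.2 CPM there, against 1.77 and 2.79 CPM in heated hsfa1, a log2 difference of 4.92. P6 was alike, with 51.7 and 53.6 CPM in heated dko and 1.37 and 1.28 CPM in heated hsfa1 (log2 5.31). P10 held 24.3 and 23.7 CPM in heated dko and 0.798 and 0.948 CPM in heated hsfa1 (log2 4.77). P4 and P9 were also called higher in dko, at 4.46 and 3.41 CPM and at 5.64 and 5.09 CPM, well below their levels in heated hsfb1.

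P1 was not open in dko. It held 1.36 and 1.23 CPM in heated dko and 1.05 and 1.31 CPM in heated hsfa1 (log2 0.13, adjusted p = 0.841), levels like those of heated Tak-1. P2, P5, P7 and P8 were not called in that contrast either, so the 10 strongest gains split evenly between 5 that were also higher in dko than in hsfa1 and 5 that were not called.

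The lower regions were more mixed. M4, on chromosome 1 from 30566694 to 30566985, was low in both lines without HSFB1. It held 0.397 and 0.707 CPM in heated hsfb1 and 12.8 and 10.9 CPM in heated Tak-1, and 1.30 and 1.34 CPM in heated dko and 12.7 and 12.5 CPM in heated hsfa1 (log2 -3.25 for dko minus hsfa1). M10, low in heated hsfb1, was open in both other mutants, with 38.9 and 40.0 CPM in heated dko and 48.5 and 45.7 CPM in heated hsfa1 (log2 -0.25, adjusted p = 0.271). M1 was low in all 3 mutants, with 0.546 and 1.17 CPM in heated dko and 0.342 and 0.474 CPM in heated hsfa1. M2 was the reverse of M4 in the other background, with 19.7 and 23.3 CPM in heated dko and 0.741 and 0.948 CPM in heated hsfa1 (log2 4.66). Thus M2 was near empty in hsfb1 and in hsfa1 but open in the line that lacks both factors.

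The same reversal was seen in other regions, of which the 3 with the largest dko minus hsfa1 difference were picked after their values were seen. Besides M2 they were both on chromosome 3. From 14178151 to 14178762, heated hsfb1 held 1.41 and 1.95 CPM and heated Tak-1 27.0 and 22.7 CPM, a log2 difference of -3.88 (SE 0.21, adjusted p = 1.26e-14), while heated dko held 29.8 and 30.3 CPM and heated hsfa1 0.884 and 1.39 CPM. From 15484918 to 15485250, heated hsfb1 held 1.12 and 1.21 CPM and heated Tak-1 3.64 and 4.17 CPM, while heated dko held 7.28 and 8.56 CPM and heated hsfa1 0.228 and 0.279 CPM.

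Regions over 2-fold in the same direction in both contrasts numbered 36 higher and 21 lower, where 0.257% and 0.333% of all regions passed that rule in dko minus hsfa1 alone. Beside P3 and P6, the higher region with the largest dko minus hsfa1 difference was on chromosome 3 from 23961499 to 23961857. It held 3.39 and 2.69 CPM in heated hsfb1 and 0.619 and 0.632 CPM in heated Tak-1 (log2 2.27, SE 0.26, adjusted p = 3.79e-07), and 14.4 and 14.7 CPM in heated dko and 0.371 and 0.613 CPM in heated hsfa1. Among the lower ones, the region on chromosome 3 from 12043848 to 12044297 held 1.15 and 1.48 CPM in heated hsfb1 and 6.89 and 3.97 CPM in heated Tak-1, and 1.64 and 2.46 CPM in heated dko and 16.8 and 15.7 CPM in heated hsfa1. The groups did not overlap in either contrast, and both regions had been picked by these contrasts.

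Few regions had a difference in heated plants that was shown to be other than the difference at 22 °C. The interaction, the heat response of hsfb1 minus that of Tak-1, was called in 4 regions (0.00979%) by edgeR, and it was negative in all 4. Before adjustment, 6994 regions had p under 0.05, and DESeq2 called 21 (2 higher, 19 lower), among them the same 4. The 4 are named I1 to I4.

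I1, on chromosome 3 from 4088942 to 4089704, opened with heat in Tak-1 (log2 1.89, adjusted p = 1.7e-09), while its change in hsfb1 was -0.32 (adjusted p = 0.282). It held 4.25 and 4.51 CPM in heated hsfb1 and 19.9 and 20.9 CPM in heated Tak-1. At 22 °C it held 5.14 and 5.83 CPM in hsfb1 and 6.47 and 4.59 CPM in Tak-1. The groups were apart when heated (log2 -2.22, SE 0.18, adjusted p = 1.65e-10) and overlapped at 22 °C (log2 -0.01, adjusted p = 0.961), and the interaction was -2.20 (SE 0.25, adjusted p = 4.53e-05). It was called without any 1 of the 8 libraries and under the other settings run for it, total count scaling, loess offsets, DESeq2 and a replicate block.

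Levels of I1 in heated dko, 5.00 and 4.03 CPM, and in heated hsfa1, 5.53 and 4.32 CPM, were near that of heated hsfb1. In the second set of plants, none of them heated, the matched region, 4088946 to 4089172, covers only the first part of I1 and also differed: hsfb1 held 0.348 to 1.12 CPM (median 0.484) and Tak-1 2.96 to 5.44 CPM (median 4.65), a log2 difference of -2.85 (adjusted p = 1.89e-07).

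I3, on chromosome 5 from 24607865 to 24610053, held 29.5 and 31.2 CPM in heated hsfb1, against 57.6 and 63.0 CPM in heated Tak-1. At 22 °C it held 33.5 and 30.4 CPM in hsfb1 and 35.1 and 35.8 CPM in Tak-1. Its heated difference was -0.99 (SE 0.11, adjusted p = 1.26e-07) and its interaction -0.84 (adjusted p = 0.0438). Heated dko, at 51.6 and 55.6 CPM, and heated hsfa1, at 55.0 and 55.5 CPM, were close to heated Tak-1 in this region. The region matched to I3 in the second set of plants, 24607869 to 24608764, covers only its first part. Without heat, edgeR called it lower in hsfb1 there (log2 -0.28, adjusted p = 0.00264).

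I4, on chromosome 6 from 21831264 to 21831737, closed with heat in hsfb1 (log2 -1.45, adjusted p = 2.12e-07). It held 4.07 and 4.07 CPM in heated hsfb1 and 9.89 and 9.57 CPM in heated Tak-1, while at 22 °C it held 9.86 and 12.4 CPM in hsfb1 and 11.5 and 11.2 CPM in Tak-1. Its heated difference was -1.25 (SE 0.16, adjusted p = 2.27e-06) and its interaction -1.22 (adjusted p = 0.0438). Heated dko held 3.03 and 3.19 CPM and heated hsfa1 7.95 and 7.30 CPM there (log2 -1.29, adjusted p = 4.17e-06), so I4 was lower in heated plants without HSFB1 in both backgrounds. In the second set of plants, none of them heated, edgeR also called I4 lower in hsfb1 (log2 -0.28, adjusted p = 0.0247).

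I2, on chromosome 4 from 1846755 to 1847856, was called different at 22 °C and not when heated. It held 12.0 and 12.9 CPM in heated hsfb1 and 14.7 and 17.9 CPM in heated Tak-1 (log2 -0.39, adjusted p = 0.115), and at 22 °C 8.27 and 9.78 CPM in hsfb1 and 5.15 and 5.08 CPM in Tak-1 (log2 0.81, adjusted p = 0.00153). Its heated groups did not overlap, and without Tak-1 heat replicate 1 the heated difference was called (log2 -0.52, adjusted p = 0.0383). Its interaction was -1.20 (adjusted p = 0.0438). Under a replicate block, or with Tak-1 heat replicate 2, either heated hsfb1 library or hsfb1 control replicate 2 left out, I2, I3 and I4 missed the threshold, with adjusted p of 0.0634 to 0.368. I2 and I4 also missed it under total count scaling, under loess offsets and without Tak-1 control replicate 2, with adjusted p of 0.063 to 0.435.

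**Figure D4:**
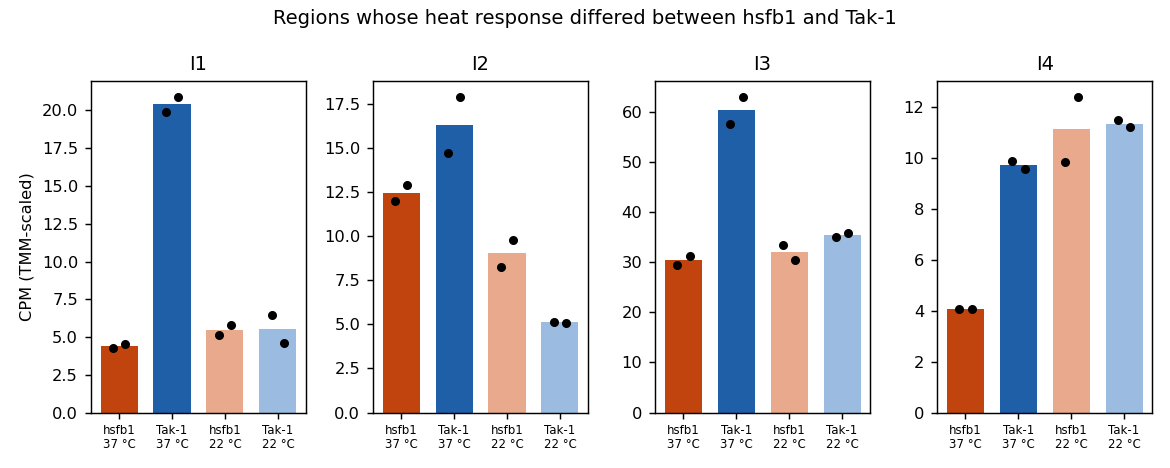
CPM of I1 to I4 in heated hsfb1, heated Tak-1, hsfb1 at 22 °C and Tak-1 at 22 °C, with bars for the mean of 2 libraries and points for each library. In I1 only heated Tak-1 stands out, at 19.9 and 20.9 CPM, and in I4 only heated hsfb1 is low, at 4.07 and 4.07 CPM.

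Regions called when heated whose 22 °C log2 difference was within 0.25 of 0 and not called numbered 527, of which 303 were higher and 224 lower in hsfb1. None of the 303 was over 2-fold and 22 of the 224 were. Only 3 of the 527, I1, I3 and I4, had a called interaction, so for the others a difference in the heat response was not shown by this test. After I1, the next lower one was on chromosome 1 from 5317747 to 5317873, with 0.685 and 1.04 CPM in heated hsfb1 and 3.08 and 2.82 CPM in heated Tak-1 (log2 -1.76, SE 0.28, adjusted p = 0.000171). At 22 °C it held 2.47 and 2.49 CPM in hsfb1 and 3.45 and 2.23 CPM in Tak-1, and its interaction was -1.57 (adjusted p = 0.146). A region on chromosome 4 from 7224975 to 7225104 held 1.62 and 1.58 CPM in heated hsfb1 and 4.55 and 3.77 CPM in heated Tak-1 (log2 -1.37, SE 0.23, adjusted p = 0.000329). In the second set of plants, none of them heated, edgeR called both of these regions lower in hsfb1. The log2 differences there were -0.95 (adjusted p = 0.0041) on chromosome 1 and -0.61 (adjusted p = 0.00839) on chromosome 4.

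The 5 highest of the 303 moved with 1 Tak-1 library. On chromosome 8 from 11013068 to 11013328, heated hsfb1 held 168 and 154 CPM and heated Tak-1 108 and 59.0 CPM (log2 0.95, SE 0.19, adjusted p = 0.0016). On chromosome 7 from 17817707 to 17817821, heated hsfb1 held 16.0 and 15.5 CPM and heated Tak-1 9.92 and 6.45 CPM (log2 0.95, SE 0.16, adjusted p = 0.000384). In each of the 5, Tak-1 replicate 2 was the lowest of the 4 libraries, and 4 of the 5 were not called without it. The log2 differences of those 4 were then 0.54 to 0.66.

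Single libraries also moved with the higher regions at large. In 1220 of the 1418 (86.0%), Tak-1 replicate 2 lay below Tak-1 replicate 1, as it did in 48.2% of all regions, and their median log2 difference between both was -0.27. Among the 101 over 2-fold higher regions it lay below in 73 (72.3%). The 640 lower regions showed it below in 27.3%, but the 139 over 2-fold lower ones in 82 (59.0%). The hsfb1 pair showed a like order: replicate 2 lay below replicate 1 in 1136 of the 1418 (80.1%), against 51.1% of all regions, with a median log2 difference of -0.12. Called higher were 277 regions without hsfb1 replicate 1, 173 without Tak-1 replicate 2, 701 without hsfb1 replicate 2 and 2361 without Tak-1 replicate 1.

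Region width moved with the direction of the difference. With regions split into 5 classes of near equal size by width, 6.71% of the narrowest, 63 to 172 bases, were called higher and 1.13% lower, with a median log2 difference of 0.12. Among the widest, 1004 to 5432 bases, 0.281% were higher and 1.36% lower, with a median of -0.12. Offsets fitted on width in each library, an alternative chosen after seeing the data, gave 1916 regions (1200 higher, 716 lower), with 425 higher and 173 lower in the narrowest class and 116 higher and 69 lower in the widest. Over 2-fold the split was then 71 higher and 192 lower, against 101 and 139 with TMM, so the higher share was 27.0% with width offsets and 42.1% with TMM.

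**Figure D5:**
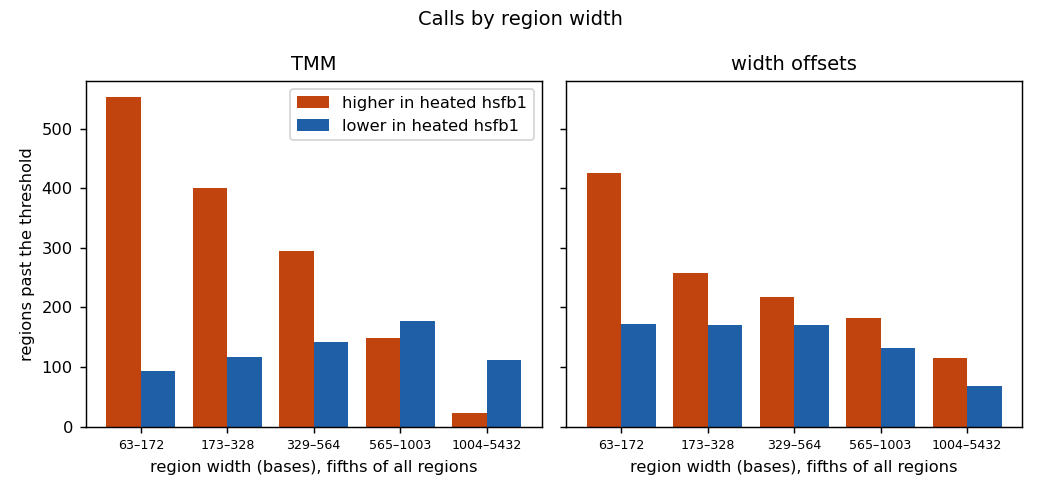
Number of regions past the threshold, higher and lower in heated hsfb1 than in heated Tak-1, by 5 classes of region width, with TMM normalization (left) and with offsets fitted on width (right). Higher regions outnumber lower ones most in the narrowest class, 552 to 93 with TMM and 425 to 173 with width offsets.

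Regions that heat opened in lines without HSFA1 were mostly alike in heated hsfb1 and heated Tak-1. A set was picked without any hsfb1 or Tak-1 library: the 278 regions called and over 2-fold higher with heat in both hsfa1 and dko. Of these 278, 2 were higher in heated hsfb1 than in heated Tak-1 (0.719%) and 1 was lower (0.36%). Among all regions, 3.47% were called higher and 1.57% lower. In all, 1.51% of regions opened over 2-fold in hsfa1 and 1.85% in dko, and 4.88% and 3.37% closed. Their median log2 difference was 0.0 and the central 90% lay between -0.42 and 0.40. The 682 regions that heat closed over 2-fold in both hsfa1 and dko held 2 higher and 31 lower (4.55%), with a median of -0.08, beside 1.57% lower among all regions.

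Heat opened 399 regions over 2-fold in both hsfb1 and Tak-1, where 1.09% and 2.48% of all regions did. This set uses the heated libraries themselves and is given as a description. It held 8 higher (2.01%) and 0 lower, with a median log2 difference of 0.24. Among all regions, 3.47% were called higher and 1.57% lower. The strongest heat responses averaged over both genotypes were picked after their values were seen. On chromosome 6 from 23014005 to 23014289, heated hsfb1 held 11.8 and 13.3 CPM and heated Tak-1 11.1 and 10.6 CPM. On chromosome 6 from 22067508 to 22068782, heated hsfb1 held 37.1 and 34.0 CPM and heated Tak-1 35.0 and 39.6 CPM, and the groups overlapped. On chromosome 7 from 10377869 to 10378033, heated hsfb1 held 5.08 and 5.39 CPM and heated Tak-1 3.50 and 3.78 CPM, which missed the threshold (log2 0.52, SE 0.22, adjusted p = 0.189). In the same order, log2 heat responses were 3.43, 2.47 and 3.01 in hsfb1 and 4.44, 3.29 and 2.90 in Tak-1. At 22 °C both chromosome 6 regions were called higher in hsfb1, by log2 1.22 and 0.75. The interaction was called in none of these regions.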

How the data were processed

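The deposited values are counts of reads per accessible region, which the authors left without normalization. Per the submitters' processing notes, reads were handled with Bowtie2 2.4.4, fastp 0.24.0 and FastQC 0.11.9, with MACS2 2.2.7.1, Subread 2.0.6 and featureCounts, and with deepTools, bedtools and SAMtools, in an order and with settings not stated. The genome build and the treatment of duplicates are not given in the sources used here. It is not stated whether starts count from 0 or 1.

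The heat table (16 libraries, 40873 regions) and the ABA table (16 libraries, 53390 regions) were fitted separately in R 4.3.3 with the quasi-likelihood F test of edgeR 4.0.16 (limma 3.58.1), using 1 mean for each group and TMM scaling. Adjustment by Benjamini and Hochberg ran over every region of a table. All 16 libraries shared 1 estimate of spread, and the filterByExpr filter removed 0 regions. SE was taken as the absolute log2 difference divided by the root of F. CPM are counts divided by the library total and its TMM factor. In the ABA table titles and column names disagree on which libraries received ABA, so both treatments were averaged. Regions of both tables were matched where they overlapped by at least 50% of the shorter. The method was also run on simulated counts with 200 regions changed, drawn independently by region and library. These held no trend with width and no shifts shared by many regions of a library. That run therefore cannot check the calls where libraries differ in such ways.

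Regions were named among those past the threshold with a mean of at least 50 counts over the 4 heated libraries, except that runs had no minimum of counts and interaction regions had to pass in the interaction alone. They were the 10 highest and 10 lowest. Added were 5 each way whose 22 °C log2 difference in the heat table was within 0.25 of 0 and not called. Also named were all with a called interaction, 3 each way with the lowest adjusted p (P1, P3, P6, M3, M6 and M10) and the longest runs. The last were 3 each way over 2-fold in both hsfb1 minus Tak-1 and dko minus hsfa1. Others were chosen after their values were seen, as stated. The comparison and these rules were chosen with earlier results of these data known. Alternatives were total count scaling, loess offsets on level, offsets on width (added after seeing the data), DESeq2 1.42.0 with its filtering set at 0.05, a replicate block, the 4 heated libraries alone, a minimum mean of 50 counts, no filter, and each library left out in turn, where a lone library was taken to vary as the other groups did. The replicate numbers were not taken as pairs, since the deviations of same-numbered libraries correlated above 0.1 in some pairs of groups and not in others.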

Additional observations from a re-analysis of the deposited data

Results flagged for a closer look

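A test of the heat response of hsfb1 minus that of Tak-1 called 4 regions, all with a negative value (quasi-likelihood F test of edgeR, p adjusted by Benjamini-Hochberg). I1, on chromosome 3 at 4088942 to 4089704, differed by log2 -2.20 (adjusted p = 4.53e-05), and it was called under all alternatives run for it. I2, on chromosome 4 at 1846755 to 1847856, differed by -1.20. I3, on chromosome 5 at 24607865 to 24610053, differed by -0.84. I4, on chromosome 6 at 21831264 to 21831737, differed by -1.22. There the response was a stronger closing in hsfb1, at log2 -1.45 against -0.22 in Tak-1. I2, I3 and I4 had an adjusted p of 0.0438 each and were not called under a replicate block or when either heated hsfb1 library, hsfb1 control replicate 2 or Tak-1 heat replicate 2 was left out. I2 and I4 were also not called under total count scaling, under loess offsets or without Tak-1 control replicate 2.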

How the results depend on the processing

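The heated count of 2058 stayed within 1.5 times under total count scaling, loess offsets, width offsets, DESeq2, the 4 heated libraries alone and a minimum mean of 50 counts (1441 to 2109), and was 1880 with the replicate block, but ran from 340 to 4216 without single libraries. The over 2-fold count of 240 was 239 with the replicate block and ran from 166 to 674 without single libraries. At 22 °C the count of 14578 (7058 higher, 7520 lower) was 4014 with loess offsets, 13783 with the replicate block, 14244 with replicate numbers crossed in the Tak-1 pair, and 480 to 20704 without single libraries; total count scaling moved the median of all regions to 0.26 and the split to 12432 higher and 3284 lower. The interaction count of 4 was 2 with total count scaling, which moved the median to -0.21, 2 with loess offsets, 21 with DESeq2, 1 with the replicate block, and 1 to 9801 without single libraries. It was 9801 without Tak-1 control replicate 1, 490 without Tak-1 heat replicate 1 and 85 without hsfb1 control replicate 1. Heated dko minus hsfa1 gave 1032 regions, 545 with total count scaling, 917 with the replicate block and 180 to 254 without single libraries. The second set of plants gave 6813, 7922 with the replicate block and 3196 to 7130 without single libraries. The causes were not tested. The heated log2 difference of 2 uncalled regions changed sign around 0: on chromosome 6 from 21510937 to 21511695 it was -0.02, 0.01 with width offsets and -0.12 to 0.07 without single libraries (0.06 without Tak-1 heat replicate 2, 0.07 without hsfb1 heat replicate 1), and at 22067508 to 22068782 it was -0.07, 0.03 with width offsets and -0.16 to 0.02 without single libraries (0.02 without Tak-1 heat replicate 2). Over the 51 named regions, 608 of 661 values under alternatives kept their direction and side of the threshold. The fit with no filter repeats the main fit, since the filter removed 0 regions, and is no separate check.

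Deviations of same-numbered libraries from their group means correlated at 0.145 between heated hsfb1 and heated Tak-1 and at -0.441 between both at 22 °C. Depth limits small differences at regions with few counts, above all in hsfb1, whose heated libraries held fewer counts.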
